A study of Rattus norvegicus with 68 samples.

Results

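Gene expression in the nasal lining of rats after 5 d of formaldehyde at 10 ppm was set against that of rats kept at 0 ppm for the same time. The arrays were chosen by the dose and the time in their labels and by no measured value. There were 4 arrays of 10 ppm and 4 of 0 ppm, 8 of the 68 arrays of the study, and all 14217 genes that had a probe set with 1 gene symbol were used. The study exposed male F344/CrlBR rats, 8 weeks old at the start, in whole-body inhalation chambers for 6 h per day and 5 d per week, at 0, 0.7, 2, 6, 10 or 15 ppm and for 5 d, 4 w or 13 w. Proteases freed the epithelial cells from level II of the nose once its maxilloturbinate and olfactory lining had been taken away, and each Affymetrix Rat230_2 array holds the RNA of 1 animal. The 10 ppm animals of 5 d carry the numbers 324, 328, 329 and 330, and the 0 ppm animals of 5 d the numbers 204, 207, 208 and 210. The values of each gene are given in that order of animals. The 15 ppm and 6 ppm groups of 5 d, and the 10 ppm and 0 ppm groups of 13 w, with 4 animals each, were used to place the response. The labels name exposed arrays by HCHO and 0 ppm arrays by codes starting with ACO, and give no batch or chamber, so anything that these codes may stand for cannot be told apart from dose.

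Formaldehyde is a small reactive aldehyde that dissolves in the mucus of the nose, binds thiols and amino groups, and joins proteins to DNA and to each other. Cells bind it to glutathione and oxidise it through Adh5 (formaldehyde dehydrogenase) and Esd (S-formylglutathione hydrolase). The respiratory lining of the rat nose holds ciliated, secretory and basal cells. After injury the basal cells divide and migrate, and a flat, keratin-rich squamous lining can take the place of the ciliated one.

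Values are log2 signals made with RMA, on which a difference of 1 is a 2-fold change. Changes are 10 ppm minus 0 ppm with the SE of a limma fit over all 68 arrays, n = 4 animals in each group, and a gene was called at a Benjamini-Hochberg adjusted p under 0.05 over all genes. No fold is given where the mean of a group was under 6. Array medians of the study lay between 6.82 and 6.96. Arrays correlated across genes at 0.978 to 0.994 within 10 ppm and at 0.991 to 0.995 within 0 ppm. At 10 ppm the mean correlation of an animal to its own group was 0.985 for 329, 0.987 for 324 and 0.991 for both 328 and 330. Results that rest on 1 animal are given with and without it. The 3-prime minus 5-prime difference of the beta-actin control probe sets, which grows as RNA is shortened, was 2.05 ± 0.25 at 10 ppm and 1.71 ± 0.20 at 0 ppm (SD, n = 4 each, two-sided exact permutation p = 0.0286, the smallest this design allows). For GAPDH the difference was 0.16 ± 0.07 at 10 ppm and 0.24 ± 0.10 at 0 ppm (SD, n = 4 each, two-sided exact permutation p = 0.343). The RNA integrity number of the labels was 8.50 ± 0.36 at 10 ppm (SD, n = 3, none given for animal 324) and 7.68 ± 0.29 at 0 ppm (SD, n = 4, exact permutation p = 0.0571 over 35 permutations). Its values at 10 ppm, 8.2 to 8.9, all lay above those at 0 ppm, 7.5 to 8.1. All genes were refitted with the beta-actin difference or the RNA integrity number as a covariate, and the counts stand beside the first count below. Of 153 named genes that were called, 10 lost the call with the beta-actin difference and 10 with the RNA integrity number. How much of a change goes with RNA quality was not tested.

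At 10 ppm most genes of mitosis, DNA replication and ribosome biogenesis rose. Among genes called higher the changes of Sprr1b, of the cornified envelope, Areg, a growth factor, and Slc7a11, a cystine importer, were the largest. Some genes of oxidant defence rose, while some enzymes of xenobiotic metabolism and the chemokine Cxcl13 fell. Of the 14217 genes, 1386 were higher (9.75%) and 823 lower (5.79%) at 10 ppm, 15.5% in all. The median change of all genes was -0.01, that of the genes called higher 0.396 and that of those called lower -0.385. A change of at least 1.5-fold was reached by 336 genes called higher and 132 called lower, and one of at least 2-fold by 103 called higher and 12 called lower. For 1731 of the called genes the 4 arrays of 10 ppm all lay beyond the 4 of 0 ppm, as they did for 17.0% of all genes (9.76% higher and 7.2% lower). Without animal 329 the calls numbered 1362, of which 845 were higher and 517 lower, and with only the 8 arrays in the fit they numbered 1025. With the beta-actin difference as a covariate there were 2456 calls, and with the RNA integrity number 1911. The calls of the main fit were not all among these. Kept in the same direction were 60.1% of them without animal 329 and 44.3% with only the 8 arrays. With the beta-actin covariate 86.2% were kept, and with the RNA integrity number 78.7%. Where a gene list had 0 calls in a direction, the number of its genes at an unadjusted limma p under 0.05 follows in brackets.

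**Figure D1:**
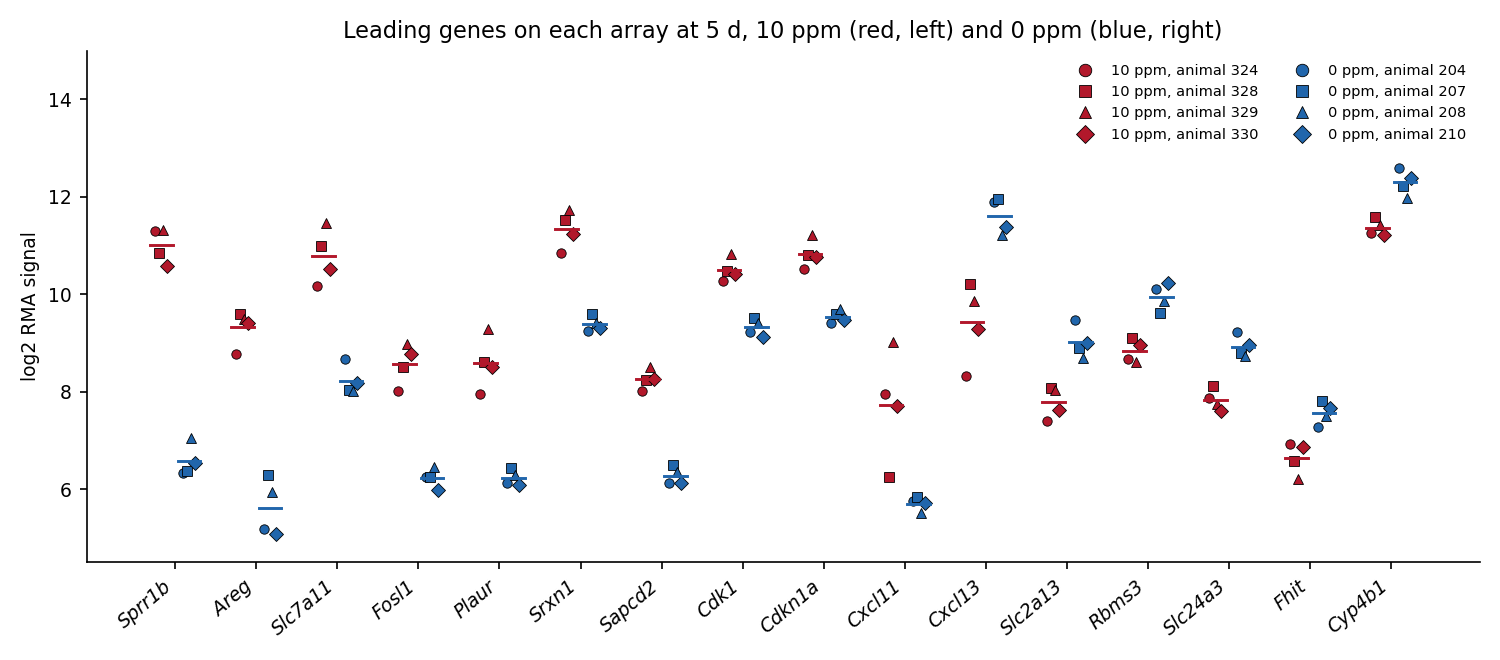
Log2 RMA signals of 16 genes, 1 point per array at 5 d, with the 4 animals of 10 ppm (red) left of the 4 of 0 ppm (blue) and lines at the group means; shapes mark the animals. For all 16 genes the groups do not overlap, as was part of the choice of most of them, and for Cxcl11 the 10 ppm points run from 6.25 to 9.02.

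The largest change of a gene called higher was that of Sprr1b, a small proline-rich protein of the cornified envelope, the hardened inner coat of squamous cells. Its signal was 11.30, 10.84, 11.32 and 10.58 at 10 ppm, against 6.33, 6.38, 7.04 and 6.53 at 0 ppm. All exposed animals were high and none of the others came near, a change of 4.44 ± 0.40 or 21.7-fold (limma adjusted p = 6.4e-12). Of 36 genes of cornification and squamous differentiation 8 rose and 0 fell (0), with a median change of 0.30, and the count of 8 ranged from 6 to 11 when 1 animal was left out. Tgm1, the transglutaminase that crosslinks the envelope, changed by 1.21 ± 0.35 (adjusted p = 0.0118), but its groups met at 8.26 and the call was lost without animal 210 (0.97) or 329 (1.00). Serpinb2, S100a10 and Anxa1 of this list were called higher too, while some other envelope genes did not pass the test. Sprr1a, another small proline-rich protein, with signals of 14.18, 14.03, 14.31 and 13.89 at 10 ppm and 13.12, 13.79, 13.64 and 12.62 at 0 ppm, changed by 0.81 ± 0.38 (adjusted p = 0.15) although its groups were separate, and Ivl (involucrin) by 0.28 ± 0.28 with group means under 6. Crabp2, which carries retinoic acid to its receptors, and Slurp1, a secreted keratinocyte protein, rose by 1.51 ± 0.34 and 1.52 ± 0.43, the second not without animal 210 (1.16). The smallest p of all genes was that of C9h6orf141, a gene named after its place and with no role given here, at 8.25, 9.01, 9.33 and 8.83 at 10 ppm, against 6.22, 6.57, 6.47 and 6.25 at 0 ppm. Its exposed animals lay far above the others, with a change of 2.48 ± 0.20 (5.56-fold, limma adjusted p = 2.5e-13). Sowahc, an ankyrin repeat gene with no role given here, gave 10.83, 10.99, 11.21 and 11.01 at 10 ppm, against 9.95, 9.79, 9.93 and 9.67 at 0 ppm (1.18 ± 0.12).

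Of 19 keratin genes, the intermediate filaments of epithelia, 9 rose and 0 fell (0), with a median change of 0.50. Krt12, best known from the cornea, gave 9.57, 9.64, 10.22 and 9.41 at 10 ppm, against 7.28, 8.13, 8.00 and 6.02 at 0 ppm. The groups did not overlap, although animal 210 lay far below the other 0 ppm animals, and the change was 2.36 ± 0.42 (adjusted p = 4.2e-05). Krt17, a keratin of wounded and basal epithelium, changed by 1.23 ± 0.31 and Krt6c, of the wound keratin family, by 1.06 ± 0.23. Krt14 of basal cells stood at 13.55, 13.75, 13.78 and 13.65 at 10 ppm, against 13.07, 13.16, 13.18 and 12.91 at 0 ppm. This gene was already abundant without exposure, all exposed animals lay above the others, and the change was 0.60 ± 0.10 (1.52-fold, adjusted p = 2.4e-05). Krt5, its partner, changed by 0.50 ± 0.15 and lost the call without animal 204 (0.45), 210 (0.45) or 329 (0.42), while Tp63, the basal cell transcription factor, changed by -0.01 ± 0.10.

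Several genes of wound edges and of plasminogen activation rose as well. Plaur, the receptor that holds urokinase at the cell surface, gave 7.96, 8.60, 9.29 and 8.51 at 10 ppm, against 6.12, 6.43, 6.28 and 6.09 at 0 ppm. Every exposed animal was well above the others, a change of 2.36 ± 0.27 (5.14-fold, adjusted p = 3.2e-09). The other probe set of Plaur was not called. Serpinb2, a serpin that blocks plasminogen activators, changed by 2.15 ± 0.44 (adjusted p = 0.0003), and S100a10, which binds plasminogen with annexin A2, by 0.66 ± 0.12. Of 15 genes of plasminogen activation 4 rose and 1 fell (2 without animal 204), with a median change of 0.05, so that the rise was not shared by most members. The rise of Plau, urokinase itself, was 0.60 ± 0.18 with overlapping groups and was not called without animal 210 or 329 (0.42 each). Tnfrsf12a, the receptor of the cytokine TWEAK and a gene of injured tissue, gave 9.98, 10.99, 10.91 and 10.75 at 10 ppm, against 8.47, 8.78, 8.71 and 8.04 at 0 ppm. The groups were separate by more than 1 log2 unit, with a change of 2.16 ± 0.25. Fst (follistatin), which binds activin, changed by 2.04 ± 0.25 and Gdf15, a secreted stress factor, by 1.19 ± 0.24, while 2 of 29 genes of activin and TGF-beta signalling rose in all and 4 fell. Those that fell included Id1 (-0.54 ± 0.18) and Id3 (-0.78 ± 0.27), both targets of BMP signalling, and neither was called without animal 204 (-0.30 and -0.56). Id1 was not called without animal 328 either, nor Id3 without any 1 of 207, 324, 328, 329 and 330. The count of 4 was 1 without animal 204 or 328, 2 without 207, 324, 329 or 330 and 3 without 208 or 210.

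Of 32 genes of cell migration and the cytoskeleton 10 rose and 2 fell (1 without animal 204, 210 or 324), with a median change of 0.09. Tubb6, a tubulin, changed by 1.23 ± 0.21 and Pdlim7, an actin-bound adaptor, by 0.82 ± 0.16. Of 24 genes of hemidesmosomes and wound integrins 5 rose and 2 fell. Without animal 329 only 1 of the 5 was called, and of the 2 none was called without animal 204 and 1 without 324 or 330. Itga6 and Itgb4, the integrin pair of the hemidesmosome, changed by 0.54 ± 0.14 and 0.67 ± 0.18. The Itgb4 call was lost without animal 329 (0.55), and none of the 3 other probe sets of Itga6 was called. Among 25 junction genes 2 fell, 0 or 1 without any 1 animal other than 329, and 6 rose, 3 without animal 210 or 329, including Pkp3, a desmosome plaque protein, at 0.67 ± 0.14 and Cldn4, a claudin of tight junctions, at 0.60 ± 0.13. Of 22 matrix metalloproteinases and their inhibitors 0 rose (1, and 1 called without animal 324) and 1 fell, the inhibitor Timp4 (-0.65 ± 0.15). Of 22 Notch pathway genes 2 rose and 0 fell (0), Notch1 at 0.74 ± 0.18 and Nrarp, which is a target and an inhibitor of Notch, at 0.73 ± 0.13.

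Several ligands of the epidermal growth factor (EGF) receptor rose, while the receptors did not pass the test. Areg (amphiregulin) gave 8.77, 9.60, 9.50 and 9.42 at 10 ppm, against 5.18, 6.28, 5.93 and 5.08 at 0 ppm. The exposed animals were at least 2 log2 units above the highest unexposed one, and the change of 3.70 ± 0.32 (adjusted p = 2.3e-12) was that of a gene near background at 0 ppm. Ereg (epiregulin) gave 6.98, 7.77, 8.00 and 8.04 at 10 ppm, against 5.56, 6.28, 5.60 and 5.55 at 0 ppm, where animal 207 was the highest (change 1.95 ± 0.24). Hbegf changed by 1.10 ± 0.18 and Nrg1 by 0.58 ± 0.16, but 5 of the 7 other probe sets of Nrg1 were not called. Tgfa (-0.06 ± 0.09) and the receptors Egfr (0.08 ± 0.13) and Erbb2 (-0.15 ± 0.12) did not pass. Lrig1, a membrane protein that restrains the receptors, fell by 0.50 ± 0.10, with signals of 10.79, 10.85, 10.83 and 10.67 at 10 ppm, against 11.24, 11.31, 11.24 and 11.33 at 0 ppm. Of the 19 genes of this family 4 rose and 2 fell, 1 without animal 204, 210, 324 or 330, and the median change was -0.02.

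Transcription factors and feedback genes of the pathways that such receptors use gave calls in part. Fosl1, an AP-1 subunit of growing and migrating epithelium, gave 8.02, 8.51, 8.98 and 8.77 at 10 ppm, against 6.25, 6.24, 6.45 and 5.98 at 0 ppm. The groups lay more than 1 log2 unit apart and the change was 2.34 ± 0.21 (5.06-fold, adjusted p = 5.1e-12). Maff, a small Maf factor, changed by 1.38 ± 0.20, Ier3 by 0.88 ± 0.18 and Ier5 by 0.48 ± 0.11, the last pair being early response genes, and neither of the 2 other probe sets of Ier5 was called (-0.09 and -0.07). Myc rose by 0.60 ± 0.18 with overlapping groups, but not without animal 210 (0.50) or 328 (0.49). The rapid early factors Fos (-0.15 ± 0.20), Jun (0.01 ± 0.18) and Egr1 (-0.19 ± 0.25) did not pass, although they were abundant in both groups, with Fos between 12.42 and 12.81 at 10 ppm and between 12.53 and 13.13 at 0 ppm. In all, 6 of 31 AP-1 and early genes rose and 0 fell (0), with a median change of 0.09. Among 19 feedback genes of the ERK pathway 4 rose and 3 fell. Etv4, an ETS factor induced by ERK, changed by 0.94 ± 0.20 and Dusp5, a phosphatase of ERK, by 0.58 ± 0.15, Dusp6 by -0.06 ± 0.12, and the inhibitors Spry1 and Spry2 fell by 0.51 ± 0.11 and by 0.43 ± 0.14, Spry2 not without animal 204 (-0.36) or 330 (-0.34).

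**Figure D2:**
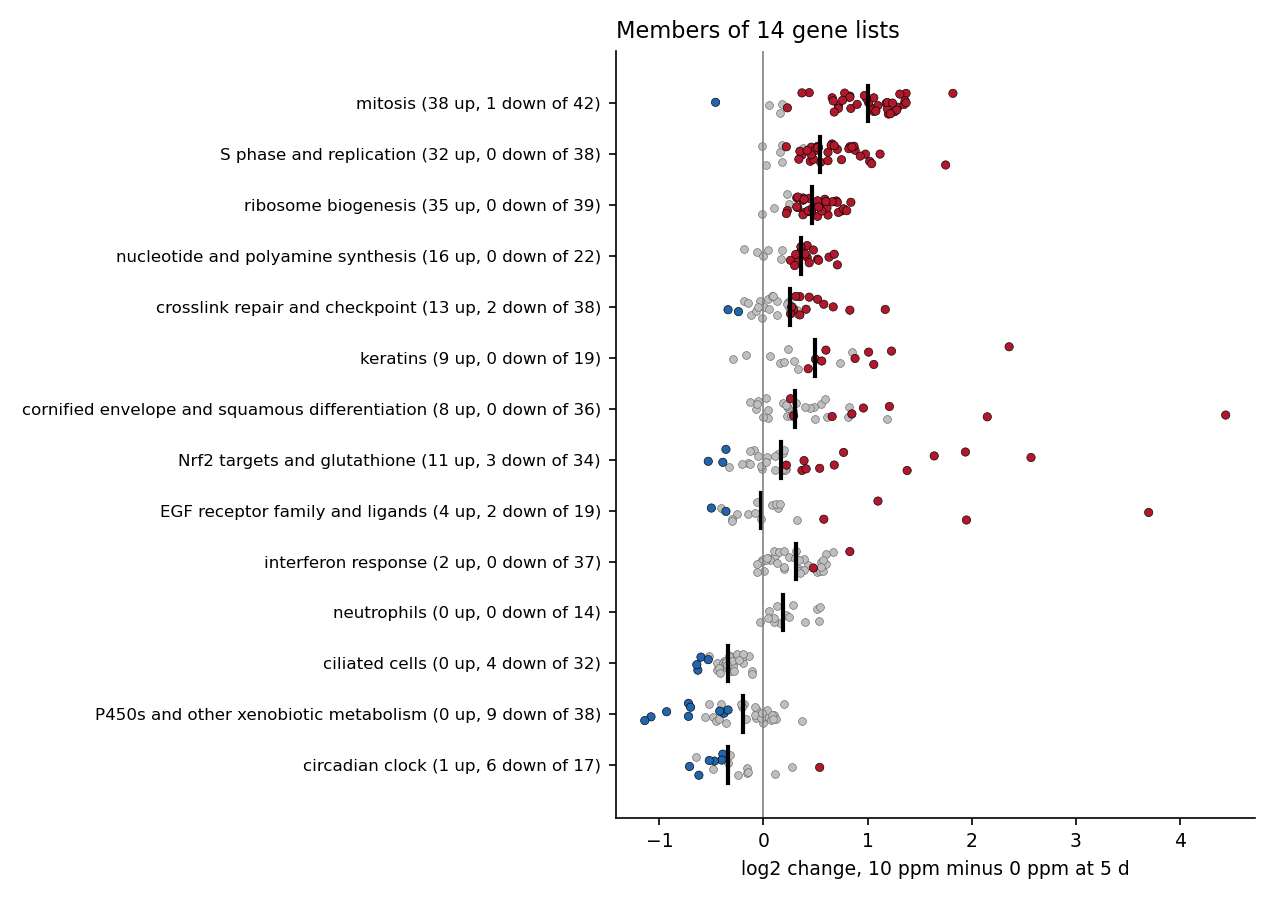
Log2 change, 10 ppm minus 0 ppm at 5 d, of each member of 14 gene lists; red points were called higher, blue points called lower, grey points did not pass, and black bars are medians. Mitosis genes lie furthest right as a list with a median of 1.00, while all 32 ciliated cell genes lie left of 0.

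Most genes of dividing cells rose. Of 42 mitosis genes 38 rose (36 to 38 with any 1 animal left out) and 1 fell, with a median change of 1.00. Cdk1, the kinase that starts mitosis, gave 10.28, 10.48, 10.82 and 10.41 at 10 ppm, against 9.23, 9.52, 9.41 and 9.12 at 0 ppm. All 4 exposed animals stood above the others, a change of 1.18 ± 0.13 (2.26-fold, adjusted p = 8.5e-10). Ccnb2 (cyclin B2) gave 9.49, 9.95, 10.31 and 10.02 at 10 ppm, against 8.47, 8.90, 8.61 and 8.31 at 0 ppm, a change of 1.37 ± 0.16. Ccna2 (cyclin A2) changed by 1.82 ± 0.23, Mad2l1 of the spindle checkpoint by 1.35 ± 0.16, Ube2c, which marks cyclins for destruction, by 1.24 ± 0.14, Top2a (topoisomerase) by 1.10 ± 0.15 and the proliferation marker Mki67 by 1.31 ± 0.23. Trip13, a checkpoint ATPase, changed by 1.41 ± 0.14, and Ddias, a survival factor under DNA damage, by 1.76 ± 0.17. Animal 329 was the highest and 324 the lowest of the 10 ppm group in the mean of the list, which lay 0.62, 0.94, 1.21 and 0.86 above the 0 ppm mean, with 0 ppm animals at -0.08, 0.16, 0.04 and -0.12. The member that fell was Aurkb (Aurora B kinase) at -0.46 ± 0.16, with overlapping groups, and its call was lost without any 1 of animals 208, 210, 328, 329 or 330.

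Of 38 genes of S phase and DNA replication 32 rose and 0 fell (0; 29 to 34 with any 1 animal left out), and the median change was 0.54. Pcna, the sliding clamp of DNA polymerase, gave 12.22, 12.45, 12.58 and 12.44 at 10 ppm, against 11.78, 11.93, 11.69 and 11.82 at 0 ppm. The animals of each group lay close together and did not overlap (0.62 ± 0.07, adjusted p = 3.9e-09). Uhrf1, which carries DNA methylation over to new strands, changed by 1.75 ± 0.21, Mcm5 of the replicative helicase by 1.12 ± 0.15 and Tk1 (thymidine kinase) by 0.93 ± 0.12. At the entry to the cycle Ccnd1 (cyclin D1) changed by 0.11 ± 0.16, Cdk4, its kinase, rose by 0.29 ± 0.08 (not without animal 329, 0.23), and Rbl2, a pocket protein of resting cells, fell by 0.37 ± 0.09. The cell cycle inhibitor Cdkn1a (p21) rose along with the division genes. It gave 10.51, 10.81, 11.22 and 10.76 at 10 ppm, against 9.41, 9.59, 9.69 and 9.47 at 0 ppm, with no overlap and a change of 1.29 ± 0.14 (2.44-fold, adjusted p = 3.5e-10). Of the 16 cyclin-dependent kinase inhibitors and G1 cyclins and kinases 4 rose, 2 without animal 329, and 1 fell, with a median of 0.02. In such bulk samples more dividing cells and more RNA per dividing cell cannot be told apart, nor, for a list that fell, fewer cells of a type and less RNA per cell.

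Promoters of all members of the mitosis and S phase lists, called or not, were read from RefSeq (build GRCr8), which held a promoter for 11733 of the 14217 genes (82.5%). Shares among list members, here and below, are a trait of the lists and were not computed from array values. The lists themselves were chosen with earlier results of these data known. The window was 250 bases before the start, searched on both strands. Textbook elements of genes of late cell cycle are CCAAT, bound by NF-Y, and TTTGAA, the element known as CHR. The letters CCAAT stood in 31 of 37 mitosis promoters (83.8%), against 35.1% of all promoters, and CCAAT 2 or more times in 21 of 37 (56.8%), against 11.5%. TTTGAA stood in 20 of 37 (54.1%), against 10.9% of all, and the same 20 held CCAAT as well, against 4.03% of all promoters. The letters TTTGGCGC, TTTCCCGC or TTTCGCGC, forms of the E2F element, stood in 8 of 33 S phase promoters (24.2%) and 1 of 37 mitosis promoters (2.7%), against 2.48% of all. Among the 1186 promoters of all genes called higher CCAAT stood in 38.2%, and among the 715 of genes called lower in 33.3%. In the same order, CCAAT 2 or more times stood in 15.5% and 11.2%, and TTTGAA in 12.8% and 8.53%. CCAAT together with TTTGAA stood in 6.16% and 2.94%, and the E2F letters in 4.97% and 1.54%. The genes called higher include members of both lists. Matches are letters in a window and say nothing of binding. Promoter stretches are shown for Cdk1 and Ccnb2, the mitosis genes of smallest p that hold both elements, for Mcm5, chosen likewise for E2F letters, and for Sapcd2, a spindle orientation gene that was among the largest changes (1.98 ± 0.18). They are printed 5′ to 3′ along the gene, with capitals for the elements named above on either strand. A CCAAT on the opposite strand reads ATTGG, Cdk1 holds E2F letters too, and in Mcm5 forward and reverse E2F letters overlap.
Cdk1 (chr20:19265143-19265292, plus strand): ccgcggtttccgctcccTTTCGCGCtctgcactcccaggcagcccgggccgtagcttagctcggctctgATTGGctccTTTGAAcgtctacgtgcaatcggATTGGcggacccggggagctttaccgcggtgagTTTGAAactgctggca
Ccnb2 (chr8:79981659-79981808, minus strand): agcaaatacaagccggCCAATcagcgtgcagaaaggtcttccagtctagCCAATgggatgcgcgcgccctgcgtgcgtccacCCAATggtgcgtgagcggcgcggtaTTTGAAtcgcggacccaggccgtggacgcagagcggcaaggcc
Sapcd2 (chr3:28585288-28585437, plus strand): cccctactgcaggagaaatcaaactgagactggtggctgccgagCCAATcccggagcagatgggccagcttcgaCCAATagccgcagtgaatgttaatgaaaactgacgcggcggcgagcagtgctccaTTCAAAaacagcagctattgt
Mcm5 (chr19:13488593-13488812, plus strand): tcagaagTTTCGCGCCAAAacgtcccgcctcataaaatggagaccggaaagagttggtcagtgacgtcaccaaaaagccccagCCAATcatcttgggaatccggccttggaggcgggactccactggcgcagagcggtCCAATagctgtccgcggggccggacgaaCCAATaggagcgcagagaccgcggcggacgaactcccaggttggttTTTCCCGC
The CCAAT copies lie 32 bases apart in Cdk1, 33 and 33 in Ccnb2, 30 in Sapcd2, and 55 and 28 in Mcm5, counted from first base to first base.

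Of 39 ribosome biogenesis genes 35 rose and 0 fell (0; 30 to 37 with any 1 animal left out), by small amounts that gave a median of 0.47 and a largest change of 0.84, that of Gnl3 (nucleostemin). Nop58, a core protein of box C/D small nucleolar ribonucleoproteins, gave 11.06, 11.42, 11.32 and 11.44 at 10 ppm, against 10.58, 10.59, 10.67 and 10.65 at 0 ppm. The lowest exposed animal, 324, was still above every unexposed one, and the change was 0.69 ± 0.09 (1.61-fold, adjusted p = 3.2e-08). Ddx21, a nucleolar helicase, changed by 0.80 ± 0.11, Nop56, the partner of Nop58, by 0.75 ± 0.11 and Gar1, of box H/ACA particles, by 0.77 ± 0.12. The letters CCGGAAG, bound by ETS factors, stood in 13 of 35 ribosome biogenesis promoters (37.1%), against 12.9% of all promoters, 20.4% of those of genes called higher and 9.79% of those of genes called lower. The promoter of Nop58, the list's gene of smallest p with these letters, is printed with CCGGAAG and its reverse complement CTTCCGG in capitals.
Nop58 (chr9:68614924-68615073, plus strand): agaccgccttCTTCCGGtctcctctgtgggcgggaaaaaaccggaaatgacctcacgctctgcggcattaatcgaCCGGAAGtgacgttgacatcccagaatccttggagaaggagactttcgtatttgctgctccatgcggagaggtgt
Of 22 genes of nucleotide and polyamine synthesis 16 rose and 0 fell (0; 11 to 16 with any 1 animal left out), with a median of 0.36. They included Odc1, the first enzyme of polyamine synthesis, at 0.63 ± 0.09, and Srm (spermidine synthase) at 0.68 ± 0.13. Of 29 translation factors and tRNA synthetases 16 rose and 1 fell, with a median of 0.25, and Eif4a1, a helicase of translation initiation, changed by 0.47 ± 0.09. Of 19 genes of serine and one-carbon metabolism 5 rose, among them Shmt2 of the mitochondrial folate cycle (0.71 ± 0.13) and Psat1 of serine synthesis (0.48 ± 0.08). The 1 that fell was Aldh1l1, which oxidises formyl folate (-0.44 ± 0.15, overlapping groups), and its call was lost without any 1 of animals 204, 207, 208, 324 or 330. Of 28 genes of glycolysis and hypoxia 8 rose (5 without animal 210 or 328, 4 without 329). The enzymes Pgam1 at 0.37 ± 0.06 and Pgk1 at 0.41 ± 0.08 were among those that rose. The 1 that fell was Bnip3 (0 without animal 204, 207, 210, 328 or 329). All 31 proteasome genes had a positive change, of 0.01 to 0.31, and 10 of them passed (4, 6, 3 and 6 without animal 210, 328, 329 or 330). Of 44 respiratory chain genes 0 rose (3, and 1 called without animal 207, 208 or 324) and 3 fell (1 without animal 207 or 329), with a median of 0.00.

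Oxidant defence changed unevenly. Of 34 targets of Nrf2, the factor that senses reactive aldehydes and oxidants through Keap1, and genes of glutathione metabolism 11 rose and 3 fell, with a median of 0.16. The count of 11 was 10 to 12 with any 1 animal left out, whereas the 3 were 1 without animal 207, 208 or 324 and 0 without 210 or 329. Slc7a11, which imports cystine for glutathione, gave 10.17 to 11.47 at 10 ppm, highest in animal 329 and lowest in 324, against 8.68, 8.03, 8.01 and 8.17 at 0 ppm. Each exposed animal was more than 1 log2 unit above each unexposed one, a change of 2.57 ± 0.25 (5.93-fold, adjusted p = 5.4e-11). Srxn1, which repairs oxidised peroxiredoxins, gave 10.85, 11.53, 11.73 and 11.23 at 10 ppm, against 9.25, 9.60, 9.40 and 9.31 at 0 ppm. Its groups were as clearly apart (1.94 ± 0.18, 3.85-fold, adjusted p = 7.8e-12), and of its 2 other probe sets 1 was called in the same direction and 1 was not called. Hmox1 (heme oxygenase) changed by 1.64 ± 0.22, Txnrd1 (thioredoxin reductase) by 0.68 ± 0.11, Cat (catalase) by 0.77 ± 0.15 and Gclm, the modifier subunit of glutathione synthesis, by 0.54 ± 0.13. Its catalytic partner Gclc changed by 0.37 ± 0.10, a call lost without animal 329 (0.30). Nqo1, a quinone reductase often used as a marker of Nrf2, stood at 13.76, 13.87, 14.04 and 13.82 at 10 ppm and at 13.69, 13.87, 13.56 and 13.55 at 0 ppm. The groups overlapped and the change of 0.20 ± 0.08 did not pass (adjusted p = 0.0935). Gsr (glutathione reductase) changed by -0.15 ± 0.16, Nfe2l2 (the gene of Nrf2) by -0.09 ± 0.06 and Keap1 by 0.19 ± 0.07, and none of these passed.

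Enzymes that act on aldehydes went in both directions. The reductases Akr7a3 (2.02 ± 0.30, 4.06-fold), Akr1b1 (0.75 ± 0.12), Akr1b8 (0.68 ± 0.12) and Cbr1 (0.75 ± 0.14) rose, the 4 of 18 aldo-keto and carbonyl reductases that did, while 2 fell (1 without animal 204, 207, 324 or 330). Of 19 genes of formaldehyde and aldehyde oxidation 3 fell and 1 rose, Aldh5a1, which oxidises succinic semialdehyde (0.41 ± 0.14), and its call was lost without animal 204, 208, 210, 328 or 329. Adh5, with signals of 12.28, 12.04, 11.85 and 12.23 at 10 ppm and 12.02, 12.37, 12.29 and 12.13 at 0 ppm, changed by -0.10 ± 0.11 and did not pass (adjusted p = 0.617). Esd gave 10.43, 10.64, 10.60 and 10.59 at 10 ppm, against 10.81, 10.86, 10.72 and 10.79 at 0 ppm, and although the groups did not overlap the change of -0.23 ± 0.09 did not pass (adjusted p = 0.0887). Aldh2, the mitochondrial aldehyde dehydrogenase, fell by 0.49 ± 0.12, with 12.78, 13.05, 13.02 and 12.76 at 10 ppm, against 13.58, 13.47, 13.23 and 13.30 at 0 ppm. Aldh6a1, of valine breakdown, fell by 0.59 ± 0.12 and Aldh1a1, which makes retinoic acid, by 0.23 ± 0.07.

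Some genes of xenobiotic metabolism fell. Of 38 P450 and related genes 9 fell, 5 without animal 204, and 0 rose (1, and 1 called without animal 208 or 324), with a median of -0.20. Cyp4b1, a P450 of airway cells, gave 11.25, 11.58, 11.42 and 11.22 at 10 ppm, against 12.60, 12.23, 11.97 and 12.38 at 0 ppm. The exposed animals all lay below the others, and the level at 0 ppm was 1.90 times that at 10 ppm (change -0.93 ± 0.17, adjusted p = 8.4e-05). Fmo1, a flavin monooxygenase, changed by -1.08 ± 0.30, Aox1 (aldehyde oxidase) by -1.14 ± 0.38, Ces1d, a carboxylesterase, by -0.70 ± 0.12, Por, the electron donor of P450s, by -0.42 ± 0.10 and Cyp2f4, a P450 of secretory cells, by -0.34 ± 0.06. The call of Fmo1 was lost without animal 204 (-0.85) and that of Aox1 without 204 (-0.95), 207 (-1.13), 324 (-0.93) or 330 (-0.99). Of 20 glutathione transferases 5 fell and 0 rose (1), with a median of -0.21, and without animal 324 3 fell and 1 rose. Gstz1, which acts on maleylacetoacetate, fell by 0.49 ± 0.12 and Gsta3, which acts on steroids and lipid peroxides, by 0.42 ± 0.13, the second not without animal 204, 207, 210 or 324 (-0.41 to -0.38). These are families of similar genes, for which cross-hybridisation between members was not tested.

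Sfn (14-3-3 sigma), a checkpoint protein of keratinocytes, gave 12.65, 12.98, 13.23 and 12.91 at 10 ppm, against 11.29, 11.97, 12.04 and 10.95 at 0 ppm, a change of 1.38 ± 0.21. Ccng1 (cyclin G1) gave 10.83, 11.12, 11.29 and 11.19 at 10 ppm, against 10.38, 10.19, 10.33 and 10.38 at 0 ppm. The groups of both genes were separate, and for Ccng1 the change was 0.79 ± 0.10 (1.73-fold, adjusted p = 3.5e-08). Phlda3, an inhibitor of Akt signalling, changed by 0.80 ± 0.13 and Bak1, which opens mitochondria in cell death, by 0.49 ± 0.11. Mdm2, a ubiquitin ligase, changed by 0.14 ± 0.07 and did not pass (adjusted p = 0.203), but its 2 other probe sets were both called higher. Gadd45a changed by 0.41 ± 0.13 with animal 324 at 9.73 within the 0 ppm range. Its call was lost without animal 204, 208, 328, 329 or 330 (0.35 to 0.39).

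Of 38 genes of crosslink repair and its checkpoints 13 rose and 2 fell, with a median of 0.26, and without animal 329 7 rose and 0 fell (0 fell without animal 207 as well). Chek1, the checkpoint kinase of stalled replication forks, gave 7.57, 7.85, 8.17 and 7.63 at 10 ppm, against 6.83, 6.75, 6.44 and 6.53 at 0 ppm, a change of 1.17 ± 0.15. Fancd2 of the Fanconi anaemia pathway changed by 0.67 ± 0.12, Usp1, which acts on it, by 0.44 ± 0.07, and the exonuclease Exo1 by 0.83 ± 0.14 at a level under 6. Sprtn, the protease that digests proteins crosslinked to DNA, changed by 0.27 ± 0.09 (adjusted p = 0.0284), a call lost without animal 207 (0.22), 208 (0.26), 210 (0.27) or 329 (0.20). Mgmt, which removes alkyl groups from guanine, changed by -0.34 ± 0.10 and lost its call without animal 207 (-0.29) or 329 (-0.22). Of 25 heat shock and metallothionein genes 9 rose and 0 fell (1, and 1 called without animal 204 or 324), with a median of 0.16, including the mitochondrial chaperone Hspd1 (0.42 ± 0.07) and the small heat shock protein Hspb1 (0.83 ± 0.22). Of 34 genes of the unfolded protein and integrated stress responses 5 rose (3 without animal 210 or 329) and 4 fell (2 without 204, 1 without 210 or 329), with a median of 0.00. Herpud1, a target of the endoplasmic reticulum branch, fell by 0.41 ± 0.10.

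Chemokine genes varied widely between the 10 ppm animals. Cxcl10 and Cxcl11, ligands of the receptor CXCR3 of T cells that interferon induces, were higher at 10 ppm by amounts that differed from animal to animal. Cxcl10 gave 7.61, 7.02, 9.10 and 8.36 at 10 ppm, against 6.26, 5.84, 6.21 and 6.34 at 0 ppm, a change of 1.86 ± 0.54 (adjusted p = 0.012) that was 1.5 without animal 329 and no longer called (adjusted p = 0.0931). Cxcl11 gave 7.95, 6.25, 9.02 and 7.70 at 10 ppm, against 5.76, 5.83, 5.51 and 5.71 at 0 ppm, a change of 2.03 ± 0.51 that was 1.60 without animal 329 (adjusted p = 0.0468). The groups did not overlap for either gene, with animal 328 nearest to the 0 ppm range and 329 farthest above it. Tslp, an alarm cytokine of epithelium, changed by 0.95 ± 0.23 and Cxcl6, a ligand for neutrophils, by 1.02 ± 0.29, both near background at 0 ppm, and Cxcl6 was not called without animal 329 (0.71). Cxcl2, a ligand for neutrophils, gave 8.26, 7.78, 10.20 and 10.76 at 10 ppm and 6.92, 8.25, 7.97 and 8.15 at 0 ppm. Animals 329 and 330 were high and the other exposed animals within or just above the 0 ppm range, and the change did not pass (1.43 ± 0.69, adjusted p = 0.17). In all, 4 of 45 chemokines and cytokines rose, 2 without animal 329 and 10 without animal 324, and the median change was 0.15.

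The member that fell in this list had the largest change of any gene called lower. Cxcl13, which draws B cells, gave 8.33, 10.22, 9.86 and 9.28 at 10 ppm, against 11.89, 11.95, 11.22 and 11.39 at 0 ppm. All exposed animals lay below all others, and animal 324 was the lowest. The change was -2.19 ± 0.46, so that the level at 0 ppm was 4.57 times that at 10 ppm (adjusted p = 0.00045), and it was -2.34 without animal 329. Pigr, the receptor that carries IgA through the epithelium, changed by -0.60 ± 0.21 (adjusted p = 0.0386), a call lost without animal 204, 208, 210, 324, 328 or 330 (-0.61 to -0.54). Without animal 210 a further chemokine or cytokine was called lower, 2 in all. Ptgs2, the inducible cyclooxygenase, rose by 1.40 ± 0.38, and Pla2g4a, which frees its substrate, fell by 0.48 ± 0.14, among 24 prostaglandin and leukotriene genes of which 2 rose and 3 fell (0 fell without animal 210, and Pla2g4a was not called without 324 either).

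The interferon response genes stood out in 1 animal. Of 37 genes 2 rose and 0 fell (0), with a median of 0.31. The mean of the list lay 0.07, 0.10, 1.06 and -0.03 above the 0 ppm mean in the 10 ppm animals, against 0.19, -0.20, -0.01 and 0.02 in those of 0 ppm, so that only animal 329 stood outside the 0 ppm range. Isg15, a ubiquitin-like protein induced by interferon, gave 10.76, 10.26, 11.97 and 10.43 at 10 ppm and 10.67, 9.76, 9.99 and 10.32 at 0 ppm, and Irf7, a transcription factor of the response, gave 10.98, 10.88, 12.79 and 10.56 at 10 ppm and 10.99, 10.31, 10.65 and 11.13 at 0 ppm. Neither passed (0.67 ± 0.37 and 0.54 ± 0.29). Oasl, an antiviral protein, changed by 0.83 ± 0.24 and Eif2ak2, the kinase PKR, by 0.48 ± 0.16, values that were 0.51 and 0.23 without animal 329 and no longer called. Eif2ak2 was not called without animal 210 or 328 either. Leaving out animal 207 or 329 left 0 genes of the list called, 210 or 328 left 1, and 330 left 5.

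**Figure D3:**
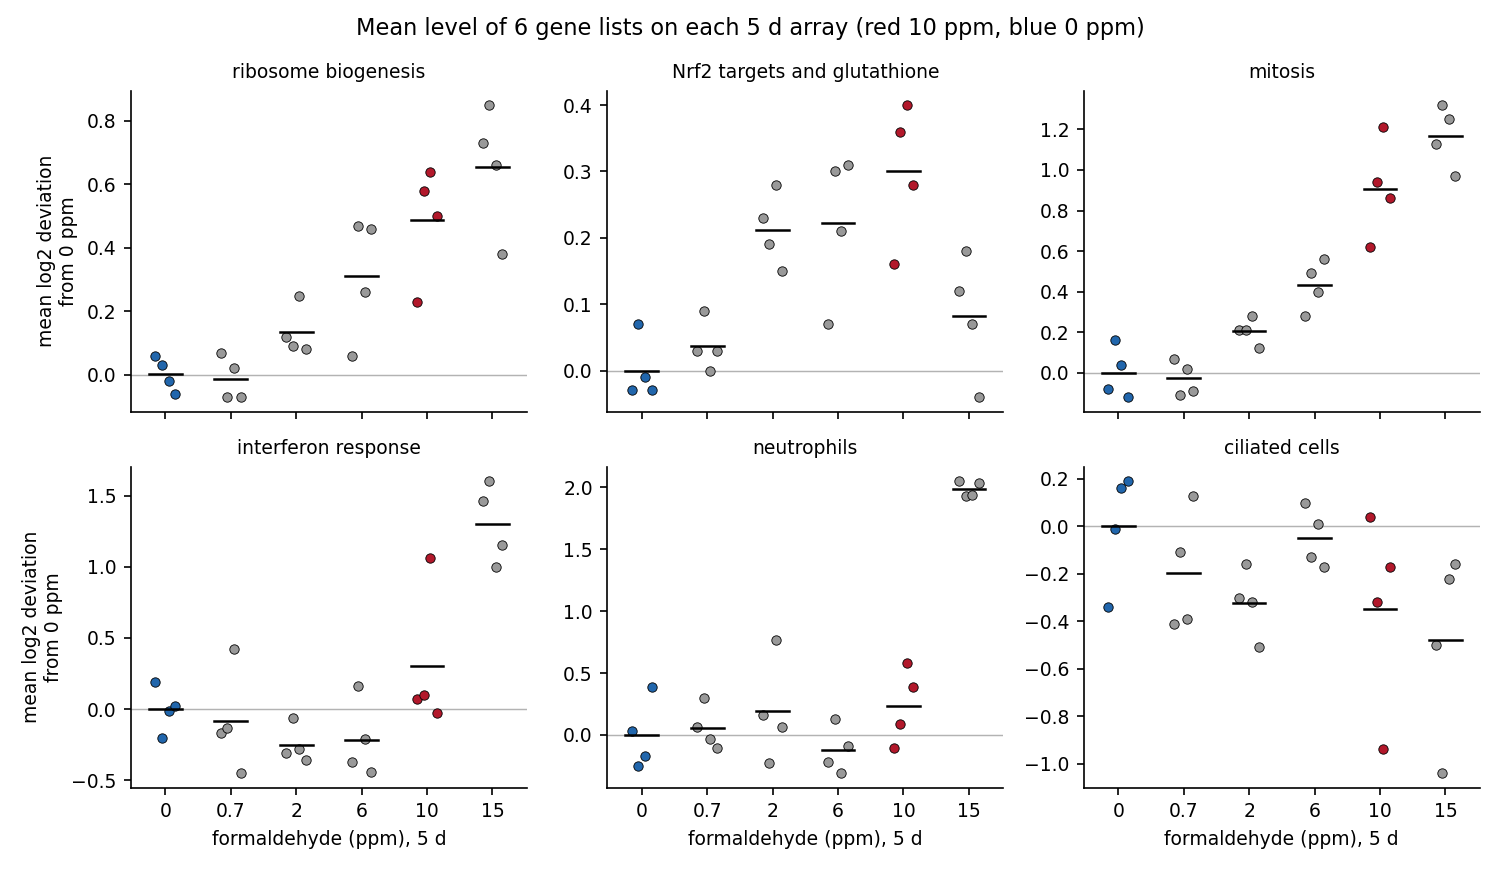
Mean log2 deviation from the 0 ppm group over the members of 6 gene lists, 1 point per 5 d array against dose in ppm (evenly spaced), with lines at group means; red is 10 ppm and blue 0 ppm. The neutrophil markers lie between -0.11 and 0.58 at 10 ppm and between 1.93 and 2.05 at 15 ppm, and 1 animal of 10 ppm stands out for interferon genes.

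Markers of leukocytes gave few calls at 10 ppm. Of 14 neutrophil markers 0 rose (0) and 0 fell (0), with mean deviations of -0.11, 0.09, 0.58 and 0.39 at 10 ppm and 0.03, -0.25, -0.17 and 0.39 at 0 ppm. Of 24 macrophage and dendritic cell markers 1 rose, Itgax, an integrin of dendritic cells (0.69 ± 0.23), not without animal 207, 208, 210, 328 or 329. Of 33 lymphocyte markers 1 rose, Gzmb (granzyme B), at 5.46, 4.87, 6.53 and 5.33 at 10 ppm and 4.67, 4.74, 4.41 and 4.96 at 0 ppm, not without animal 329 (0.53). The lymphocyte list as a whole was highest in animal 329, at 0.37 against -0.05, -0.04 and -0.06 in the other 10 ppm animals and -0.15 to 0.19 at 0 ppm. Of 8 class II histocompatibility genes 0 were called (0). The part of leukocytes in the chemokine and interferon values of animal 329 was not tested.

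Of the epithelial markers, 6 of 14 for basal cells rose (3 without animal 329) and 2 fell (0 without 204, 1 without 329), with a median of 0.21. The axonemal and other markers of ciliated cells, 32 in number, all had a negative change, from -0.64 to -0.11 with a median of -0.34, but only 4 passed (2 without animal 208 and 1 without 210, 329 or 330), led by Spag16 at -0.60 ± 0.14, of which another probe set was not called. The list's mean lay at 0.04, -0.32, -0.94 and -0.17 at 10 ppm, against -0.34, -0.01, 0.16 and 0.19 at 0 ppm. The groups overlapped, with animal 329 the lowest of all 8 and animal 324 within the 0 ppm range. Foxj1, the master factor of motile cilia, gave 10.71, 10.33, 9.80 and 10.55 at 10 ppm and 10.27, 10.72, 10.78 and 10.90 at 0 ppm (-0.32 ± 0.17, adjusted p = 0.221). Of 25 secretory and goblet cell markers 3 fell (1 without animal 210), namely Cyp2f4, Pigr and Foxa1 (-0.63 ± 0.19, not called without animal 210 or 330), and the mucin Muc5b changed by 0.04 ± 0.34. Omp, the marker of mature olfactory neurons, was bright in every animal although the olfactory lining had been removed, at 13.65, 12.36, 11.20 and 13.00 at 10 ppm and 12.25, 13.13, 13.30 and 12.44 at 0 ppm. Of the 22 olfactory markers 0 were called (2), and animal 329 was again the lowest, at -1.32. Of 38 markers of fibroblasts, cartilage and bone 0 were called (1), with a median of -0.24, and of 26 of endothelium, muscle and blood 0 (2, and 1 called higher without animal 324), with a median of -0.16. Further, 1 of 15 nasal gland markers fell, not without animal 204, 207, 210, 324 or 330. The part of these cell type markers in the changes of other lists was not tested.

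Genes called lower were longer than the rest. Their span from start to end in RefSeq (GRCr8) had a median of 59.6 kb, against 22.3 kb for all genes tested and 15.0 kb for genes called higher. Of the 1944 genes over 100 kb 15.3% were called lower, and most did not pass. Over 100 kb lay 298 of 821 genes called lower (36.3%) and 22 of 1386 called higher (1.59%), against 13.7% of all genes with a span. In the other direction, of genes up to 10 kb 12.5% were called higher and 2.42% lower, and of those of 200 to 500 kb 0.493% were called higher and 19.7% lower. The same contrast was seen at every signal level from 6 upward, with 29.0% of genes over 100 kb called lower among those of a mean signal over 10. On single arrays the median deviation of genes over 100 kb minus that of genes up to 20 kb was -0.08, -0.15, -0.24 and -0.14 at 10 ppm, against 0.01, -0.07, 0.01 and 0.05 at 0 ppm, so that the groups lay close to each other with 324 and 207 almost equal. At 6 ppm it was 0.00, -0.22, -0.02 and -0.05, and at 0.7 ppm it was 0.02, 0.07, 0.01 and 0.05. The share of long genes among those called lower was 42.7% with the beta-actin difference as a covariate and 40.8% without animal 207. This pattern was looked for after values had been seen, and its relation to RNA quality or to any process in the cells was not tested further.

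**Figure D4:**
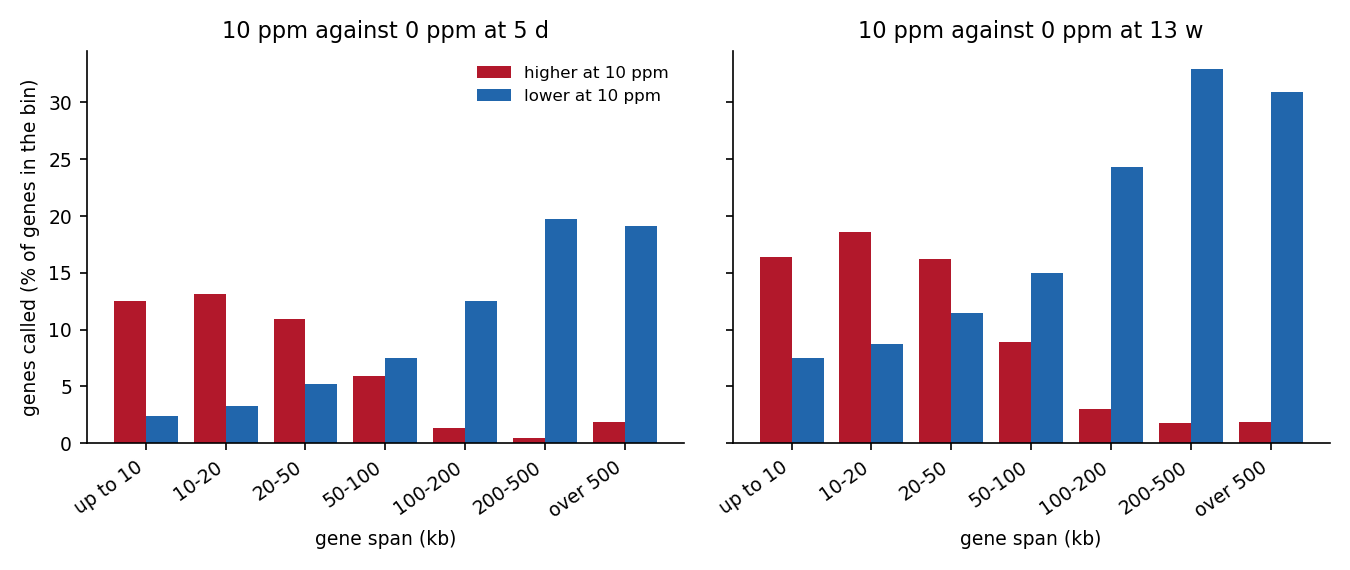
Share of genes called higher (red, left) or lower (blue, right) at 10 ppm, in percent of all genes in each bin of gene span in kb, at 5 d and at 13 w. At 5 d the share called lower climbs from 2.42% in the shortest bin to 19.7% at 200 to 500 kb, while that called higher drops under 2% over 100 kb.

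The long genes among the leading ones include Rbms3, an RNA-binding protein with a span of 786.9 kb, at 8.67, 9.11, 8.60 and 8.95 at 10 ppm, against 10.10, 9.61, 9.86 and 10.24 at 0 ppm. No exposed animal reached the lowest of the others, and the change was -1.12 ± 0.18 (adjusted p = 4.4e-06). Fhit, a diadenosine hydrolase at a fragile site with a span of 1507.5 kb, gave 6.93, 6.57, 6.20 and 6.87 at 10 ppm, against 7.28, 7.80, 7.51 and 7.66 at 0 ppm (-0.92 ± 0.14). Slc24a3, a sodium, calcium and potassium exchanger with a span of 499.1 kb, gave 7.86, 8.11, 7.75 and 7.60 at 10 ppm, against 9.22, 8.80, 8.74 and 8.95 at 0 ppm (-1.10 ± 0.14, adjusted p = 1.2e-07). The groups were separate for both genes, and the second probe set of Slc24a3 was not called. Slc2a13, a myo-inositol transporter (327.3 kb), changed by -1.23 ± 0.23, Pik3c2g, a lipid kinase (367.9 kb), by -1.13 ± 0.27 and Chrm3, a muscarinic receptor (462.1 kb), by -1.06 ± 0.20. Atg10 of autophagy (289.8 kb) and Fto, a demethylase of RNA (408.3 kb), fell by 0.72 ± 0.10 and by 0.43 ± 0.07 with narrow spread, Fto at 9.35, 9.30, 9.11 and 9.28 at 10 ppm and 9.71, 9.60, 9.64 and 9.82 at 0 ppm. Atp13a5, a cation transporter (139.4 kb, -0.99 ± 0.15), Babam2, a subunit of the BRCA1-A complex (378.4 kb, -0.46 ± 0.07), and Lrmda (1059.0 kb, -0.89 ± 0.14) were also among the leading genes called lower. Galnt2, which starts O-glycans (111.6 kb, -0.39 ± 0.05), gave 10.98, 10.87, 10.80 and 10.82 at 10 ppm, against 11.16, 11.33, 11.27 and 11.26 at 0 ppm. Of its other probe sets 1 was called lower and 5 were not called. Genes under 100 kb fell too, among them Uts2r, the urotensin receptor (1.2 kb, -1.20 ± 0.31), Slc39a2, a zinc transporter (2.7 kb, -0.76 ± 0.12), and Vipr1, a receptor of vasoactive intestinal peptide (35.9 kb, -0.94 ± 0.17). Further genes of large change rested on fewer animals. F5, coagulation factor V (69.6 kb), changed by -1.17 ± 0.38, a call lost without animal 204 (-0.92), 210 (-1.15), 324 (-0.94) or 330 (-1.14). Chodl (chondrolectin) changed by -1.15 ± 0.35, a call lost without 204 (-0.99), 328 (-1.02) or 330 (-1.05). Gad1, which makes the transmitter GABA, changed by -0.93 ± 0.29, a call lost without 210 (-0.81) or 329 (-0.59).

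Of 29 airway ion channel and aquaporin genes 4 fell (2 without animal 210 or 329) and 1 rose (0 without animal 329, 2 without 328). Ano1, the calcium-activated chloride channel, gave 9.80, 9.95, 9.57 and 9.90 at 10 ppm, against 10.64, 10.51, 10.55 and 10.85 at 0 ppm, all exposed animals below all others (-0.83 ± 0.14). Kcnq1, a potassium channel, fell by 0.58 ± 0.10, and the glycerol and water channel Aqp3 rose by 0.21 ± 0.06 (0.16 without animal 329, not called). Of 17 circadian clock genes 6 fell and 1 rose, with a median of -0.34, and 3 fell without animal 204, 210 or 329. The fall was in the output factors Dbp (-0.62 ± 0.14), Tef (-0.47 ± 0.13) and Hlf (-0.71 ± 0.21) and in Bhlhe40 (-0.52 ± 0.14), a repressor of the clock, with the call of Tef lost without animal 204 (-0.38) and that of Hlf without 210 (-0.63), 324 (-0.56) or 329 (-0.64), while Clock itself rose by 0.54 ± 0.08. Clock gave 9.64, 9.94, 10.11 and 9.88 at 10 ppm, against 9.46, 9.26, 9.35 and 9.35 at 0 ppm. The core repressors Per1 (-0.16 ± 0.16), Per2 (-0.34 ± 0.20) and Cry1 (0.11 ± 0.18) did not pass. The labels used here give no time of day at which tissue was taken, so this cannot be told apart from dose.

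Set directly against 6 ppm, the 10 ppm animals differed in 145 genes, 130 higher (0.914%) and 15 lower (0.106%). The share called higher was 89.7%, and 77.7% after cyclic loess scaling (108 higher and 31 lower). Without animal 329 the limma fit called 0 genes, with 1101 at an unadjusted p under 0.05, of which 744 were higher and 357 lower, and the smallest adjusted p was 0.0749. The count was 3 with the beta-actin difference as a covariate, 42 with the RNA integrity number, 43 without arrays lacking that number and 17 with only the arrays of 5 d. With array weights it was 414. With only the arrays of the groups compared limma called 0, with 1568 at an unadjusted p under 0.05. Without 6 ppm animal 295 it called 14 and without 299 28, without 10 ppm animal 324 346 and without 6 ppm animal 298 375. Mitosis genes made up 21 of the genes called higher, of 42 in that list, with a median change of 0.54 and a positive change in 39. Without animal 329, 295 or 299 the counts were 0, 2 and 7, but 38, 40 and 39 of the changes were positive, with medians of 0.42, 0.48 and 0.55. Cdk1 had the 10 ppm values above and a mean of 9.81 at 6 ppm, a change of 0.69, and Sapcd2 gave 8.01, 8.24, 8.51 and 8.27 at 10 ppm and a mean of 7.23 at 6 ppm, a change of 1.03 (adjusted p = 0.00247). Of the S phase genes 10 were called (18 without animal 324, 6 without 328 or 300, 2 without 299, 0 without 329 or 295) and all 38 had a positive change, with a median of 0.33. Of the 39 ribosome biogenesis genes the limma fit called 0, with 13 higher at an unadjusted p under 0.05 and a median of 0.15, and 2 were called without animal 324 and 3 without 298. Among the promoters of the genes called higher 38 of 116 (32.8%) held CCAAT 2 or more times, against 11.5% of all. These genes include the called mitosis and S phase members, from lists with shares of 56.8% and 27.3%, and the share without them was not computed. Cxcl10 and Cxcl11 had the largest changes among the genes called higher, 2.06 and 2.02, and Slc28a2, a nucleoside transporter, changed by 0.96. The leading genes called lower were Sema3d (-1.11), Zyg11b (-1.05), Ubn2 (-1.02), Ddx6 (-0.96) and Xiap (-0.95), each with its 2 lowest 10 ppm values in animals 324 and 329. Sprr1b (0.46), Areg (0.82), Srxn1 (0.17) and Slc7a11 (0.37) did not pass between these doses.

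Between 15 ppm and 10 ppm 2158 genes differed, 1021 higher (7.18%) and 1137 lower (8.0%) at 15 ppm. The share called higher was 47.3%, but 72.4% after cyclic loess (1489 higher and 569 lower) and 39.7% with arrays centred on their medians, so no balance of directions is given. The count was 623 with only the arrays of the groups compared. At 15 ppm, against 10 ppm, 12 of 14 neutrophil markers, 17 of 24 macrophage markers, 29 of 37 interferon genes and 22 of 45 chemokines and cytokines were higher, and of the 42 mitosis genes 9. Ccl2, which draws monocytes, had a mean of 12.25 at 15 ppm, against 6.83, 6.43, 7.75 and 7.39 at 10 ppm, a change of 5.15 (adjusted p = 1e-12), and at 10 ppm it overlapped with 0 ppm (0.35 ± 0.47). Mmp3, a matrix metalloproteinase, had a mean of 9.99 at 15 ppm, against 4.61 at 10 ppm (5.38). Ccl7, a chemokine for monocytes, had a mean of 10.41 at 15 ppm, against 5.33 at 10 ppm (5.08), while Gjb6, a connexin, changed by -1.31 and Sectm1b by -1.12. Fcnb, a lectin of neutrophils, had a mean of 11.98 at 15 ppm, against 7.12, 7.71, 8.20 and 7.88 at 10 ppm. Of the 34 Nrf2 and glutathione genes 15 were lower and 1 higher at 15 ppm. Slc7a11 had a mean of 9.87 at 15 ppm, 0.92 below that at 10 ppm (adjusted p = 0.00761), Gclc fell by 0.69 and Txnrd1 by 0.39, while Srxn1 changed by -0.08. For Txnrd1, Gclm and Cat the mean at 10 ppm was above that at 15 ppm and above that at 0 ppm. List counts and changes of single genes between 15 ppm and 10 ppm were not examined under the other scalings.

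After 13 w at 10 ppm, against 0 ppm at 13 w, 1966 genes were higher (13.8%) and 1784 lower (12.5%), 26.4% in all. The test of the difference between this response and that of 5 d called 1 gene, Cdkn2a, which was higher (0.00703% of those tested), and 836 genes had an unadjusted p under 0.05. Cdkn2a, the gene of the cell cycle inhibitor p16, stayed near background at 5 d, at 4.75, 4.83, 4.77 and 4.38 at 10 ppm and 4.80, 4.56, 4.64 and 4.51 at 0 ppm. Its change was 2.87 at 13 w and 0.06 ± 0.24 at 5 d, a difference of 2.81 ± 0.34 (limma adjusted p = 7.6e-07). The test called 7 genes without 13 w animal 348, 31 with array weights and 8 with the beta-actin covariate. For the other genes a difference between the times did not pass, which does not show that the responses were alike. The median change of the mitosis list was 1.18 at 13 w and 1.00 at 5 d, and that of ribosome biogenesis 0.65 at 13 w and 0.47 at 5 d. That of the cornified envelope list was 0.76 at 13 w, with 20 genes called higher, and 0.30 at 5 d, with 8, and that of the clock list -0.54 at 13 w and -0.34 at 5 d. Areg changed by 4.89 at 13 w and 3.70 at 5 d, and Srxn1 by 2.77 at 13 w and 1.94 at 5 d. Cxcl10 changed by 0.07 at 13 w and 1.86 at 5 d (difference -1.79, adjusted p = 0.762). Of genes over 100 kb 27.5% were called lower and 2.52% higher at 13 w.

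**Figure D5:**
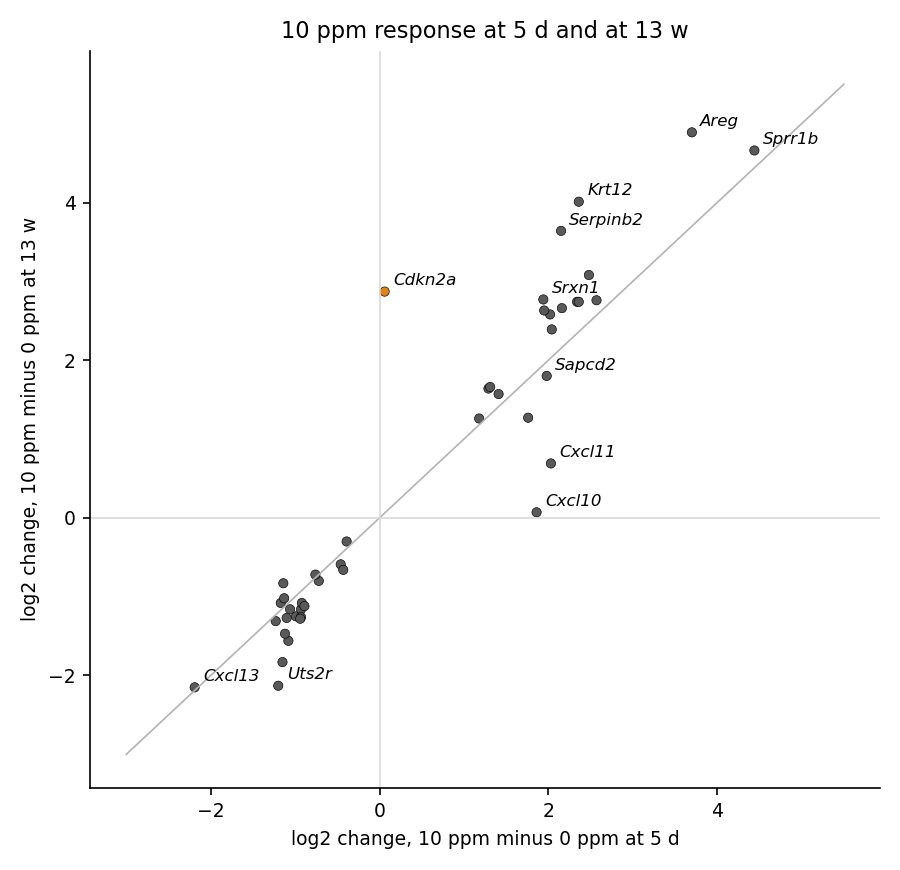
Log2 change at 10 ppm against 0 ppm after 13 w (vertical axis) and after 5 d (horizontal axis) for 44 genes named by their changes, with a grey line of equal change; n = 4 animals in each of the 4 groups. Cdkn2a (orange) lies at 2.87 and 0.06, the 1 gene for which the difference between the times passed the test.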

How the data were processed

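The deposited values are log2 signals of 31099 probe sets on 68 arrays, made by the authors with RMA and GCOS 1.0 among the tools, per the submitters' processing notes. RMA sets all arrays to 1 distribution, so a change shared by all genes cannot be seen in them. The platform annotation gave 1 gene to 20826 probe sets, several genes to 436 and none to 9780, with 57 control probe sets set aside. The probe set with the highest mean stood for each of 14217 genes, of which 4525 had 2 or more, and 14167 gene IDs matched RefSeq.

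Groups came from the labelled dose and time. The labels give 5 d where the series text speaks of 1 week. A fit of limma 3.58.1 in R 4.3.3 (lmFit and eBayes) over all 17 groups had 51 residual degrees of freedom, and p-values were adjusted by Benjamini-Hochberg over all genes. Each p-value weighs a difference of group means against the spread between animals, pooled over all 17 groups. The number of arrays limits the precision (median SE 0.104). Promoters are those of RefSeq, build GRCr8. Gene spans come from the same annotation and were known for 14198 genes.

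Genes were named from the 15 of largest change in each direction among called genes with separate groups and a higher mean of at least 6, the 10 of smallest p in each direction, up to 4 called members of each list in each direction, the 5 of largest change in each direction in the other contrasts, and a set of fixed genes. Results of 1 gene and its pathway list are not reported here. Of the list members that met this rule not all are described, and list members that did not pass were named as well. Tgm1, Crabp2, Slurp1, Krt5, Myc, Ccna2, Top2a, Gnl3, Txnrd1, Cat, Gclm, Gclc, Gsta3, Gadd45a and Sprtn were chosen after their values were seen. The comparison and the gene lists were chosen with earlier results of these data known. The alternatives tried were the scaling, the filter, the choice of probe set, the arrays in the fit, array weights, robust eBayes, RNA quality as a covariate, 0.7 ppm in place of 0 ppm, and each animal left out.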

Additional observations from a re-analysis of the deposited data

Results flagged for a closer look

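In 20 of 406 groups of 4 animals (4.93%) the highest or lowest animal lay apart from the other 3 by a larger part of the group's range than Dixon's critical value, and chance flags about 1 in 20 groups. Among the 10 ppm animals, 329 was apart at the top for Aqp3 (0.900), for the mean of the interferon list (0.877) and for that of the lymphocyte list (0.964). Animal 324 was apart at the bottom for Ccnd1 (0.841), Gar1 (0.847) and Gadd45a (0.907). Among the 0 ppm animals, 207 was apart at the top for Ereg (0.935), Gclm (0.876), Gsr (0.892) and Babam2 (0.849), and at the bottom for Oasl (0.867) and Per1 (0.830). Animal 204 was apart at the top for Ddias (0.959) and Gnl3 (0.887) and at the bottom for Cxcl6 (0.841). Animal 210 was apart at the top for Uhrf1 (0.842) and at the bottom for Nfe2l2 (0.881) and Mmp3 (0.849), and 208 at the top for Top2a (0.904) and at the bottom for Gsta3 (0.840).

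The response of Cdkn2a to 10 ppm was larger at 13 w than at 5 d by 2.81 on the log2 scale, in the limma test of that difference. Among the 10216 probe sets that name no gene or several, 286 (2.8%) were called at 10 ppm against 0 ppm at 5 d, 188 higher and 98 lower.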

How the results depend on the processing

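The number of genes called at 10 ppm against 0 ppm, 2209, was 1025 with only the arrays of the groups compared in the fit and 468 among changes of at least 1.5-fold. It lay between 1362 (without animal 329) and 2403 with 1 animal left out, and it stayed within 1.5 times of 2209 under the other alternatives. With 0.7 ppm at 5 d as reference it was 2927. Of the 2209 calls 75.6% were then kept in the same direction, and 22 named genes lost their call. Against 6 ppm, 145 genes were called, and the count was 17 with only the arrays of 5 d, 42 with the RNA integrity number as a covariate, 43 without arrays lacking that number, 3 with the beta-actin difference as a covariate, 414 with array weights and 52 for changes of at least 1.5-fold. With only the arrays of the groups compared limma called 0 genes, with 1568 at an unadjusted p under 0.05. With 1 animal left out the count ran from 0 (without 329) to 375 (without 6 ppm animal 298), and was 14 without 295, 28 without 299 and 346 without 324. At 15 ppm against 10 ppm, 2158 genes were called, 623 with only the arrays of the groups compared, 595 for changes of at least 1.5-fold, and 1641 to 2275 with 1 animal left out. The 1 gene that differed between 13 w and 5 d became 2 with the filter on low values, 4 with the mean of all probe sets, 4 with only the arrays of the groups compared, 31 with array weights, 8 with the beta-actin covariate, and 1 to 7 (7 without 13 w animal 348) with 1 animal left out.

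Over all gene lists, 363 called members became 270 (without 329) to 393. The share of genes called lower that span over 100 kb, 36.3%, was 42.7% with the beta-actin covariate and 35.7% to 40.8% with 1 animal left out, and the share of those called higher was 1.16% to 1.74%; these alternatives on gene length were chosen after seeing the data. The beta-actin difference of 0.35 was 0.22 to 0.41 with 1 animal left out, and the GAPDH difference was -0.07. The beta-actin difference was past the threshold without 204 or 210 and not without the others. It was 0.40, 0.39 and 0.38 without 324, 328 or 329, so there the threshold was missed with a larger difference and fewer arrays to permute. That of the RNA integrity number, 0.82, was 0.62 to 0.97.

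Another probe set of the same gene had the opposite sign, with none called, for Itga6 (-0.04), Nrg1 (-0.03, -0.02 and -0.02), Ier5 (-0.09 and -0.07), Srxn1 (-0.10), Spag16 (0.04), Slc24a3 (0.05) and Galnt2 (0.05). Among named genes that were called, no other probe set passed for Plaur, Plau, Tubb6, Pdlim7, Itga6, Ier5, Ddx21, Gclc or Akr1b1. The same held for Aldh5a1, Usp1, Gzmb, Spag16, Slc24a3, Chrm3, Vipr1, Tef and Gad1. Of 3911 values of 191 named genes under the alternatives, 3634 kept their side of the threshold, 240 lost the call with the sign kept and 27 gained it. The sign was compared only where a value was called in the main fit or under the alternative. There 10 were reversed, those of other probe sets given above, and they are counted apart from the 240 although none was called. Of 153 named genes that were called, 107 were called under every setting that gave a value, tests of single probe sets left out. In those tests, with reversed values left out, 16 calls were lost with the second probe set of a gene, 8 with the third and fewer with later ones. Of 1372 counts of called list members, 235 moved by over 1.5 times. The causes of these differences were not tested. No paired analysis was possible because the groups share no animal numbers. Signal near background limits genes with means under 6.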
